A study of Mus musculus with 8 samples.

Results

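The genes described here are parvalbumin and 8 genes of magnesium transport or of its inherited disorders. They were picked by name, as the rows of the deposited tables whose symbol is Pvalb, Trpm6, Trpm7, Cnnm2, Cnnm4, Slc41a1, Slc41a3, Kcna1 or Pcbd1, so 9 of the 47729 gene rows of the tables were members. Their messenger RNA was read by RNA-seq of whole mouse kidneys at postnatal day 8. The 4 knockout libraries came from Six2Cre+ KCTD1fl/fl mice, in which loxP-flanked Kctd1 is deleted by a Cre recombinase under the Six2 promoter, and the 4 wildtype libraries came from control littermates. The Six2 promoter is active in nephron progenitors, and the sample also holds collecting duct, stroma, vessels and blood cells, which do not come from them. The labels do not say which alleles or transgene the control littermates carried, or whether each library was a separate animal. The p-values therefore measure the spread between these libraries, which may be technical.

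Most filtered magnesium is taken up again between cells in the thick ascending limb, under the control of claudins and the voltage across the wall. The distal convoluted tubule sets the final amount by moving magnesium through its cells. There it enters through apical channels of TRPM6 and TRPM7, driven by the membrane voltage to which potassium channels contribute, and it leaves on the blood side by a sodium-dependent route in which the CNNM and SLC41 proteins are candidates. Parvalbumin is a calcium-binding protein of the EF-hand family that marks the early part of this segment in the mouse, and it is also abundant in fast skeletal muscle and in some neurons. Mutations in several of the genes cause low blood magnesium in people.

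Libraries held 14457760 to 20741076 counts, and 18548 genes passed a filter on low counts. The targeted gene Kctd1, whose product has a BTB domain and can repress transcription by AP-2 factors, lay lower in every knockout library (22.4 to 25.8 CPM) than in any wildtype library (28.9 to 32.6 CPM), at a log2 fold change of -0.38 ± 0.09 that did not pass the test described below (adjusted p = 0.279; 0.0178 with DESeq2). CPM is the count relative to the library total, scaled by TMM factors, and is used for all values by library. The ribosomal RNA gene Rn18s-rs5 took 5.39% of the counts of knockout 2 and 1.36% of its TPM, more than in any other library. Knockout 2 also stood apart over all genes. Chi-square per degree of freedom between its counts and those of each other library was 64.2 to 103, against 11.2 to 35.2 for all other pairs. Knockout 2 was the lowest of the 8 libraries for 6 of the 9 members in the TPM table but for 2 of 9 in CPM. The cause was not tested. Libraries are therefore compared here in CPM, and TPM is used to compare genes within a library. Knockout 2 and wildtype 3 had abundant reads of Xist, a transcript of the inactive X chromosome of females.

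In wildtype kidneys the members spanned a wide range of levels. On the TPM scale, which is per transcript length, Pcbd1 stood highest at 138 ± 7.84 TPM, followed by Pvalb at 28.0 ± 2.18 and Trpm7 at 24.7 ± 2.23. Levels in TPM and CPM are given as mean ± SD (n = 4), here and below. After a log2 fold change, ± gives the standard error (SE) throughout. Slc41a1 measured 4.41 ± 1.33, Cnnm2 3.65 ± 0.157, Slc41a3 2.44 ± 0.218, Cnnm4 1.50 ± 0.0775 and Trpm6 0.857 ± 0.126 TPM. Kcna1 was last at 0.026 ± 0.0243 TPM. The ranges of the 4 wildtype libraries overlapped between Pvalb and Trpm7 and between Slc41a1 and Cnnm2, and did not overlap between any other pair of neighbours in this order. Trpm7, the widely expressed relative, thus stood 28.8 times as high in TPM as Trpm6, the member of the pair that is characteristic of the distal convoluted tubule. The gap was smaller in CPM, at 133 ± 8.66 for Trpm7 and 10.6 ± 1.34 for Trpm6 in wildtype. Their exonic lengths are 11315 and 7719 bases, and why TPM and CPM compare so differently was not tested.

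Of the 9 members, 8 passed the filter on low counts and 1 of these 8 passed the test between genotypes. This was Pvalb, which fell. Over all genes 0.0809% passed in either direction, 0.0485% were lower and 0.0323% higher in knockout. Adjusted p throughout is the Benjamini-Hochberg value over all 18548 genes of the quasi-likelihood test in edgeR, with a threshold of 0.05. DESeq2 called the same member and no other, against 0.86% of all genes (0.549% lower and 0.311% higher). Knockout and wildtype libraries did not overlap in CPM for 3 of the 8 members, Pvalb, Trpm7 and Cnnm4, against 4.03% of all tested genes. At an unadjusted p under 0.05 there were 3 members lower and 1 higher, against 6.18% of all tested genes in either direction. The median log2 fold change was -0.17 over the 8 tested members and 0.00 over all tested genes. The members were chosen with results of these data known, so these shares describe them and test nothing.

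**Figure D1:**
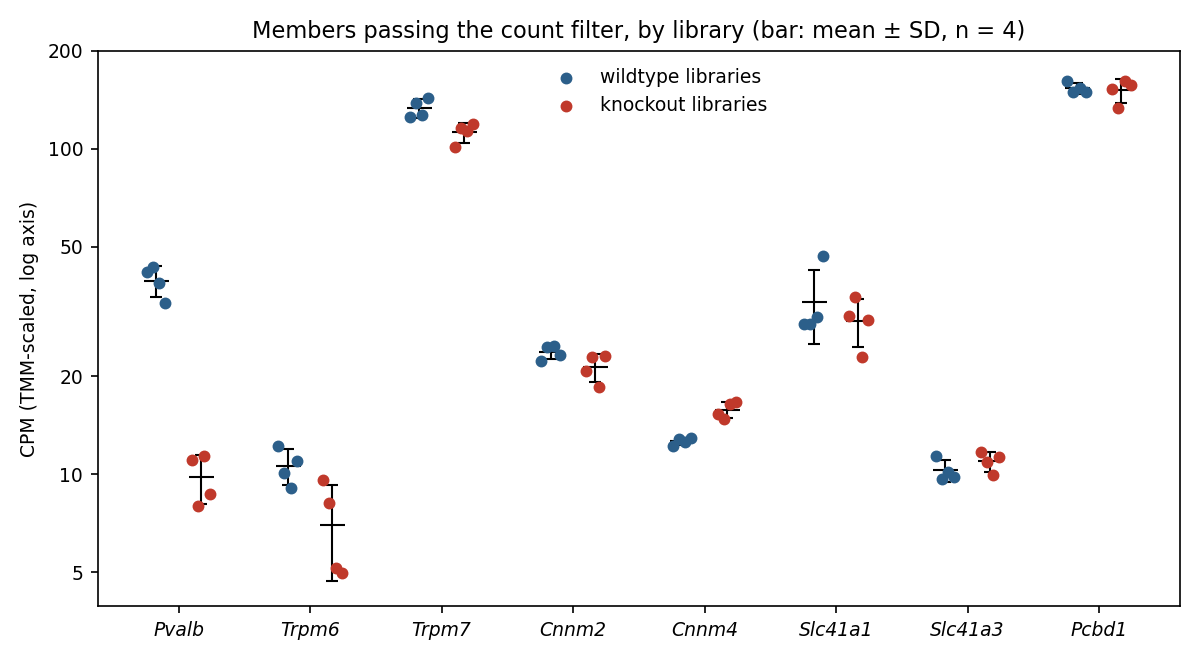
CPM of the 8 members that passed the filter on low counts, on a log axis, with 1 point per library and the mean ± SD (n = 4) of wildtype (blue) and knockout (red). The knockout libraries lie far below wildtype for Pvalb, lower without overlap for Trpm7 and higher without overlap for Cnnm4, and Slc41a1 has 1 high wildtype library.

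Pvalb (ENSMUSG00000005716; chromosome 15, 78191114 to 78206400, minus strand, GRCm38) measured 11.1, 8.01, 11.4 and 8.71 CPM in knockout 1 to 4. In wildtype 1 to 4 it measured 41.7, 43.3, 38.6 and 33.5 CPM. The highest knockout library was thus at 11.4 and the lowest wildtype library at 33.5 CPM, with no overlap. The means were 9.79 ± 1.68 and 39.3 ± 4.31 CPM, so knockout kidneys held 24.9% of the wildtype level. The log2 fold change was -2.01 ± 0.14 (SE), with a 95% confidence interval of -2.32 to -1.70 (edgeR, adjusted p = 3.6e-04). Pvalb ranked 2 by p among the 18548 tested genes and 32 by the size of its decrease among the 17268 with at least 1 CPM in the higher group. In bulk kidney, fewer parvalbumin cells and less Pvalb RNA per cell cannot be told apart.

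Pvalb is transcribed from 2 annotated start sites, and the deposited gene totals do not separate them. The 250 bases before each are shown because Kctd1 is known for acting on AP-2 factors, whose palindrome is often written GCCNNNGGC. It reads alike on both strands, and each match is in capitals. Sequences are from RefSeq on GRCm38.p6, 5′ to 3′ on the strand of the gene, with position -1 next to the start site. The first window ends at the outer start, and GENCODE places no transcript over it. The second ends at the inner start and lies within an intron of the longer Pvalb transcript. The third belongs to Trpm6, described below.
Pvalb outer start, chr15:78206401-78206650, minus strand: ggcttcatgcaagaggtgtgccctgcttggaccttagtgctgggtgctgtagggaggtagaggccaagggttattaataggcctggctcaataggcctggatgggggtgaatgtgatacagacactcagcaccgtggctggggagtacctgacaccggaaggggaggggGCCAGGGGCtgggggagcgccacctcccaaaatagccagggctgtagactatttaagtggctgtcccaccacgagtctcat
Pvalb inner start, chr15:78204238-78204487, minus strand: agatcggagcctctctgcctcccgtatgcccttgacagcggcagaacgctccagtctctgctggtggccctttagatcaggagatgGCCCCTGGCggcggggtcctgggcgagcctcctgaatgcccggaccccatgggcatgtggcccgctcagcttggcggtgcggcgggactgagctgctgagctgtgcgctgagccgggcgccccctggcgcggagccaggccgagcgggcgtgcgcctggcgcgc
Trpm6, chr19:18749480-18749729, plus strand: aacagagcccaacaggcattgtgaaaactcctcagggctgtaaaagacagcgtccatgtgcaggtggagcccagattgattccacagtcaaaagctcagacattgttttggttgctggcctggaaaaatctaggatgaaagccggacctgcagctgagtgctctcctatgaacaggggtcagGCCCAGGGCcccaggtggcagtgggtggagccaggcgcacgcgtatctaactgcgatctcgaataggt
The outer Pvalb window held GCCAGGGGC at -81 to -73 and the inner window GCCCCTGGC at -164 to -156. Trpm6 held GCCCAGGGC at -68 to -60, counted from its RefSeq start. The GENCODE position of Trpm6 given below begins further downstream, at 18749983, so the 2 sources place its start differently. RefSeq windows were found for 8 of the 9 members, 9 windows in all, and 4 windows from 3 members held the palindrome, the other being Slc41a3. Among all 32851 windows of this length, 13.7% held it. A match describes the letters and is not evidence of binding.

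The channel genes come next in the path of magnesium through the cell. Trpm6 (chromosome 19, 18749983 to 18892511, plus strand) encodes the apical magnesium channel of the distal convoluted tubule, fused to a protein kinase, and its loss in people causes low magnesium with secondary low calcium. It measured 9.62, 8.17, 5.17 and 4.98 in knockout 1 to 4, against 12.2, 10.1, 9.09 and 11.0 in wildtype 1 to 4 (all in CPM). Knockout 2, 3 and 4 lay below every wildtype library, and knockout 1 lay above wildtype 3. The knockout mean was 65.9% of the wildtype mean (6.99 ± 2.28 against 10.6 ± 1.34 CPM). The log2 fold change was -0.60 ± 0.22 with a 95% interval of -1.09 to -0.11, and it missed the threshold over all genes (edgeR, unadjusted p = 0.0213 and adjusted p = 0.698). Each library held 75 to 229 Trpm6 counts, and the knockout libraries varied more (coefficient of variation 32.7%) than the wildtype libraries (12.6%).

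Trpm7 (chromosome 2, 126791565 to 126876230, minus strand) encodes the close relative of TRPM6, a channel with a kinase that is found in most cell types and can assemble with it. Its level was 101, 116, 113 and 119 in knockout 1 to 4, against 125, 138, 127 and 143 in wildtype 1 to 4 (in CPM). The highest knockout value was below the lowest wildtype value, by a small margin. The knockout mean was 84.3% of wildtype, at a log2 fold change of -0.25 ± 0.08 (95% interval -0.42 to -0.08), which did not pass (edgeR, unadjusted p = 0.00871 and adjusted p = 0.553). A processed pseudogene, Gm14212, lies within the Trpm7 locus on the opposite strand, and although the library kit marks strand, per the labels' protocols, no source used here says if the counting did.

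On the blood side of the cell, Cnnm2 and Cnnm4 encode related membrane proteins linked to magnesium extrusion. Cnnm2 (chromosome 19, 46761596 to 46880192, plus strand) is known from the basolateral membrane of the distal convoluted tubule and from dominant low magnesium in people. It measured 20.7, 23.0, 18.6 and 23.1 in knockout 1 to 4, against 22.3, 24.6, 24.7 and 23.3 in wildtype 1 to 4 (all in CPM), with overlapping groups. The log2 fold change was -0.15 ± 0.10, and its 95% interval of -0.37 to 0.07 allows a level of 0.775 to 1.05 times wildtype (edgeR, adjusted p = 0.907).

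Cnnm4 (chromosome 1, 36471620 to 36508764, plus strand) is best known from intestine and from Jalili syndrome of the retina and the teeth. It measured 15.3, 14.8, 16.4 and 16.7 in knockout 1 to 4, against 12.2, 12.8, 12.6 and 12.9 in wildtype 1 to 4 (all in CPM). All knockout libraries lay above all wildtype libraries, which differed among themselves by little (coefficient of variation 2.43%). The knockout mean was 125% of wildtype, at a log2 fold change of 0.32 ± 0.10 (95% interval 0.11 to 0.53), and it did not pass (edgeR, unadjusted p = 0.00694 and adjusted p = 0.517). The small annotated genes Gm37909 and Gm47280 overlap the locus on the same strand. In the TPM table knockout 2, at 1.28 TPM, lay below all wildtype libraries (1.45 to 1.61 TPM), so the separation was seen in CPM alone.

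The SLC41 genes encode magnesium carriers and are the other candidates for the exit step. Slc41a1 (chromosome 1, 131827493 to 131848865, plus strand), a sodium and magnesium exchanger, measured 30.7, 35.1, 23.0 and 29.8 in knockout 1 to 4, against 28.9, 28.9, 30.4 and 46.7 in wildtype 1 to 4 (all in CPM). The groups overlapped, and wildtype 4 stood apart from the other 3 wildtype libraries. The log2 fold change was -0.19 ± 0.18 (95% interval -0.59 to 0.22; edgeR, adjusted p = 0.939), and without wildtype 4 it was 0.01. Slc41a3 (chromosome 6, 90604725 to 90646412, plus strand), which is enriched in the distal convoluted tubule of the mouse and whose loss lowers blood magnesium there, measured 11.7, 10.9, 9.93 and 11.3 CPM in knockout 1 to 4. In wildtype 1 to 4 it measured 11.4, 9.69, 10.2 and 9.81 CPM, with overlap. Its log2 fold change of 0.09 ± 0.11 had a 95% interval of -0.16 to 0.35 (edgeR, adjusted p = 0.942), and it was -0.03 and -0.05 on the TPM scale.

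Pcbd1 and Kcna1 act on the segment from outside the transport step. Pcbd1 (chromosome 10, 61089331 to 61094324, plus strand) encodes a small enzyme that recycles tetrahydrobiopterin and also acts as a transcriptional cofactor, and mutations in it can lower blood magnesium. It measured 153, 133, 162 and 157 in knockout 1 to 4, against 162, 149, 154 and 149 in wildtype 1 to 4 (all in CPM). The groups overlapped and knockout 2 was the lowest library. Without it the log2 fold change was 0.04. With all libraries it was -0.02 ± 0.07, and the 95% interval of -0.18 to 0.14 allows a level of 0.88 to 1.11 times wildtype (edgeR, adjusted p = 0.986). Among the 8 tested members this was the narrowest interval.

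Kcna1 (chromosome 6, 126640397 to 126646384, minus strand) encodes the voltage-gated potassium channel Kv1.1, and a mutation in it causes dominant low magnesium. Its counts were 1, 2, 4 and 3 in knockout 1 to 4 and 0, 1, 5 and 6 in wildtype 1 to 4. With 22 counts in 8 libraries it did not pass the filter and was not compared. The 0 in wildtype 1 allows up to 3 counts, or 0.184 CPM, for counting error only. Summed over libraries there were 10 counts in knockout and 12 in wildtype, too few to detect a small or moderate difference.

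**Figure D2:**
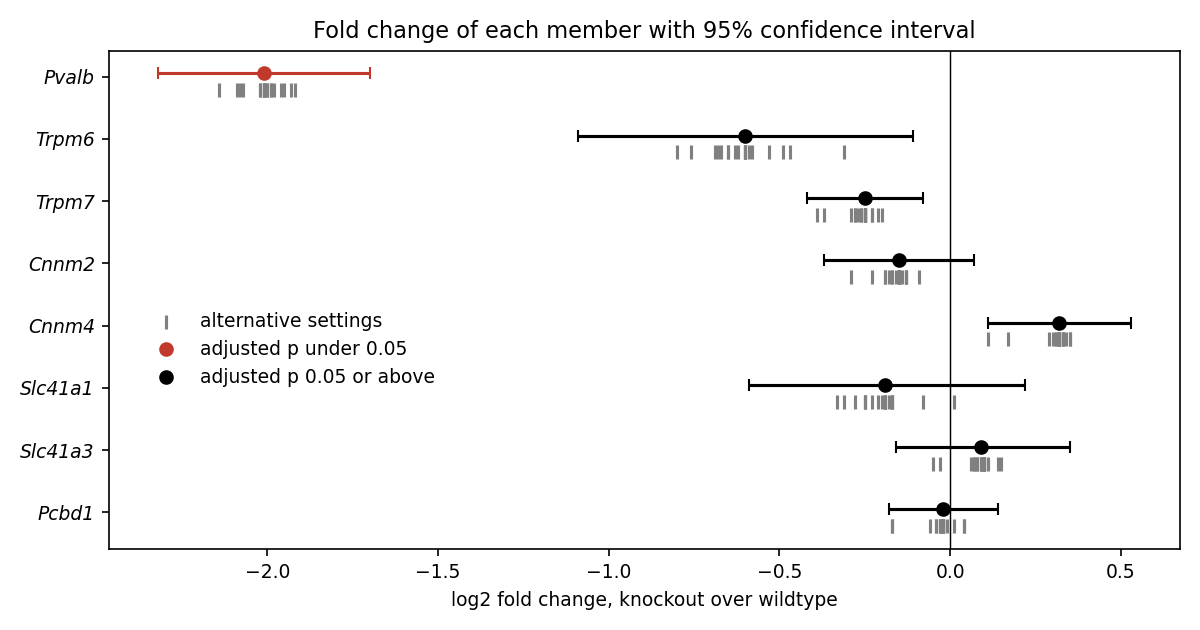
Log2 fold change of knockout over wildtype for the 8 tested members (points) with 95% confidence intervals, and the values under the 19 alternative settings (grey ticks). Pvalb alone passed the threshold, with values of -2.14 to -1.92 over the alternatives, and the intervals of Cnnm2, Slc41a1, Slc41a3 and Pcbd1 include 0.

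Pvalb was set against Slc12a3 and Trpm6, which are also genes of its segment, by ratios within each library. Such ratios do not depend on how libraries are scaled. Slc12a3, the thiazide-sensitive sodium chloride cotransporter that defines the distal convoluted tubule, measured 271, 257, 202 and 257 in knockout 1 to 4, against 435, 484, 453 and 483 in wildtype 1 to 4 (in CPM), and it fell (log2 fold change -0.91 ± 0.09; edgeR, adjusted p = 0.00634). The log2 TPM ratio of Pvalb to Slc12a3 was -2.89 to -2.03 in the knockout libraries and -1.74 to -1.27 in the wildtype libraries, without overlap. Its means differed by -1.09, so Pvalb was lower relative to the cotransporter as well. The ratio of Trpm6 to Slc12a3 behaved otherwise, at -6.72 to -5.85 in knockout and -6.67 to -6.19 in wildtype, with overlap. Pvalb relative to Trpm6 was 3.12 to 4.28 in knockout and 4.75 to 5.25 in wildtype, and Trpm6 relative to Trpm7 overlapped (-5.77 to -4.59 and -5.00 to -4.55). These ratios were chosen with earlier results known and are given without a test.

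**Figure D3:**
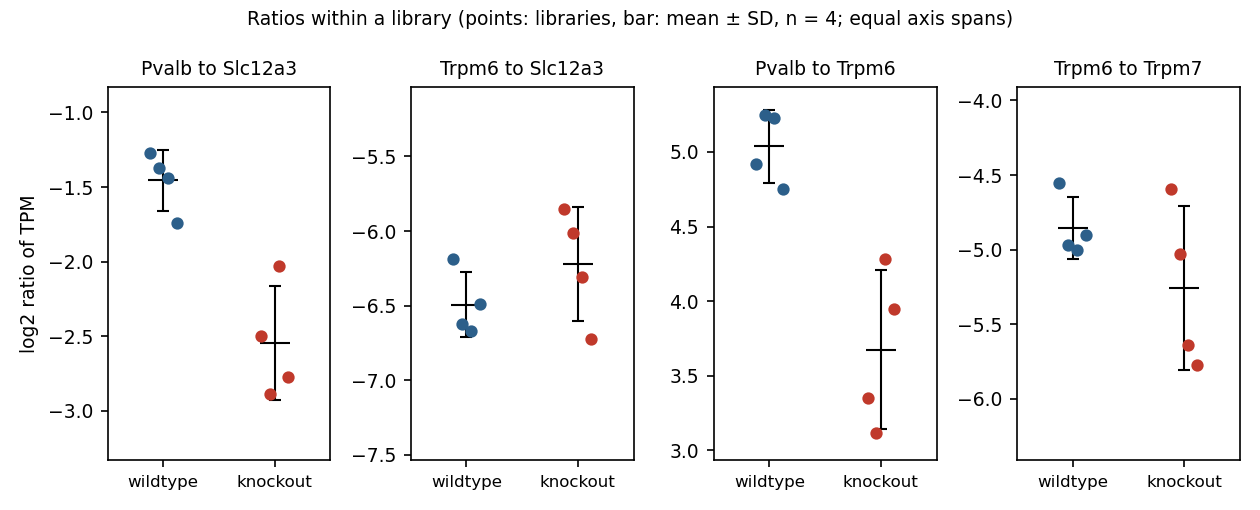
Log2 ratio of TPM between pairs of genes in each library (points), with the mean ± SD of each group (n = 4) and axes of equal span. The ratios of Pvalb to Slc12a3 and to Trpm6 are lower in all 4 knockout libraries than in any wildtype library, and the ratios of Trpm6 to Slc12a3 and to Trpm7 overlap.

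Summed markers of the distal convoluted tubule were also lower in knockout, without overlap. The 8 markers listed (Slc12a3, Klhl3, Wnk4, Kcnj10, Kcnj16, Sall3, Emx1, Tmem52b) summed to 915 to 1024 CPM in knockout and 1272 to 1413 CPM in wildtype libraries. Slc12a3 and Sall3, a zinc finger transcription factor, passed as lower in knockout, 2 of 8, against 0.0485% of all tested genes. None passed as higher. The log2 fold changes ranged from -0.91 to -0.02 with a median of -0.44, so that of Pvalb (-2.01) lay outside the range of the list. Kcnj10 (-0.47) and Wnk4 (-0.44) had the next smallest p and did not pass. Without the 2 libraries rich in Xist reads 0 of the 8 passed (median -0.52), and 0 passed with limma on log2(TPM + 1) or log2(TPM + 0.1) (medians -0.48 and -0.58). The count was 1 of 8 without knockout 1, 2 or 4 or without wildtype 1, 2 or 3, each left out alone. DESeq2 called 5 of the 8 lower. The part of fewer segment cells in the Pvalb result was not tested.

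Summed markers of the other parvalbumin-bearing cell types, skeletal muscle and neurons, overlapped between the groups. Of 11 skeletal muscle markers, the fast myosins Myh1, Myh2, Myh4 and Myh8 and the creatine kinase Ckm stayed under 0.1 TPM in every library. The highest was Mylpf, a fast myosin light chain, at 11.0 ± 5.66 TPM in knockout and 18.4 ± 5.85 TPM in wildtype, with overlapping groups (log2 fold change -0.61; edgeR, adjusted p = 0.871). Acta1, the skeletal actin, was the 1 marker of the list whose groups did not overlap, and it was higher in knockout (log2 fold change 0.94) without passing. In wildtype Pvalb measured 28.0 ± 2.18 TPM on the same scale. The Mylpf value rests on few counts, 10 to 32 per library. In CPM, wildtype libraries held 1.36 ± 0.393 of Mylpf and 39.3 ± 4.31 of Pvalb. The exonic lengths of Mylpf and Pvalb are 1062 and 1041 bases, and why their TPM and CPM compare so differently was not tested. Of the 5 muscle markers tested, 2 were lower and 3 higher in knockout. Atp2a1 had the largest decrease, at 0.611 ± 0.428 CPM in knockout and 1.29 ± 0.726 CPM in wildtype. Its groups overlapped and it did not pass (log2 fold change -1.05, edgeR, adjusted p = 0.846). Summed over the 11 markers the libraries held 7.10 to 8.42 CPM in knockout and 6.01 to 8.71 CPM in wildtype.

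The 7 neuronal markers summed to 1.79 to 9.51 CPM in knockout and 2.41 to 6.01 CPM in wildtype. Tubb3, a neuronal tubulin, was highest at 0.207 ± 0.182 TPM in wildtype, and the RNA-binding proteins Elavl3 and Elavl4 stayed under 0.1 TPM in every library. Of the 3 neuronal markers tested, 2 were higher and 1, Gad1, was lower in knockout. Gad1 stood at 0.511 ± 0.317 CPM in knockout and 0.934 ± 0.585 CPM in wildtype. Its groups overlapped and it did not pass (log2 fold change -0.86, edgeR, adjusted p = 0.898). The 3 fat markers, of which Plin1 was highest over all libraries (7.39 ± 3.01 TPM in knockout and 6.59 ± 1.85 TPM in wildtype), summed to 23.6 to 59.9 and 23.9 to 42.0 CPM. The 4 markers of adrenal cortex, led by Star, summed to 3.27 to 5.78 and 4.21 to 5.30 CPM. Enough counts for the test were found for 5 of 11 muscle, 3 of 7 neuronal, 3 of 3 fat and 1 of 4 adrenal markers. Of these tested genes 0 passed with edgeR or DESeq2. The summed levels of all these lists overlapped between the groups. Their part in the Pvalb result was not tested.

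Among relatives of parvalbumin in the EF-hand family, Calb1 and S100g, the calcium buffers of the later distal segments, were the 2 of 4 with enough counts. S100g measured 289, 346, 498 and 394 in knockout 1 to 4, against 518, 545, 524 and 436 in wildtype 1 to 4 (all in CPM), with overlap (log2 fold change -0.41 ± 0.15; edgeR, adjusted p = 0.706). Calb1 stood at 228 to 325 CPM in knockout, against 260 to 361 CPM in wildtype (-0.13 ± 0.13; edgeR, adjusted p = 0.939). Calb2 was listed at 0 in all libraries, and oncomodulin, the nearest relative of parvalbumin, stayed below the filter. Of the 8 listed markers of the late segment and the connecting tubule, which include Calb1 and S100g, 0 passed and the median was -0.01. The groups did not overlap for 1 of the 8, against 4.03% of all tested genes. This was Klk1, a kallikrein, at 165 to 455 CPM in knockout and 458 to 596 CPM in wildtype. It was lower by a small margin and did not pass (log2 fold change -0.53 ± 0.29, edgeR, adjusted p = 0.852). By p, Slc8a1, the sodium and calcium exchanger, followed S100g in this list, at 0.32 ± 0.17.

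None of the other magnesium transport genes passed the test. Of 15 genes (Cnnm1, Cnnm3, Slc41a2, Magt1, Tusc3, Mrs2, Nipa1, Nipa2, Nipal1 to Nipal4, Mmgt1, Mmgt2 and Arl15), all tested, 0 passed with edgeR or with DESeq2 and 0 reached an unadjusted p under 0.05 with either. Their log2 fold changes ran from -0.64 to 0.27 with a median of -0.02. Nipa1, a magnesium transporter of endosomes and the cell surface, measured 5.47, 7.34, 6.21 and 5.23 in knockout 1 to 4, against 8.71, 7.62, 6.93 and 7.02 in wildtype 1 to 4 (all in CPM; edgeR, unadjusted p = 0.0723). Mrs2, the channel of the inner mitochondrial membrane, stood at 12.1 to 16.7 CPM in knockout, against 10.2 to 13.0 CPM in wildtype. Both sets of values overlapped between the groups.

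Further genes whose mutations waste magnesium act mostly on sodium, potassium or chloride transport. Of 12 such genes 1 passed, Slc12a3, against 0.0809% of all tested genes, and the median was -0.16. Egf, whose product stimulates TRPM6, measured 27.2, 23.2, 30.6 and 41.3 in knockout 1 to 4, against 56.2, 66.1, 66.3 and 72.3 in wildtype 1 to 4 (in CPM), without overlap, and lay just above the threshold (log2 fold change -1.09 ± 0.16; edgeR, adjusted p = 0.0599). Kcnj10, the basolateral potassium channel of the segment, stood at 60.0 to 73.2 CPM in knockout, against 88.9 to 97.4 CPM in wildtype, also without overlap (edgeR, adjusted p = 0.127). DESeq2 called 3 of the 12 lower (Slc12a3, Egf and Kcnj10) and 0 higher. Without the 2 libraries rich in Xist reads, and with limma on either TPM scale, 0 passed, and 2 passed without knockout 4 or with no filter on low counts. In the thick ascending limb list 0 of 5 passed, and 1 was higher with DESeq2 and, in edgeR, with upper-quartile scaling, with no filter on low counts or without wildtype 4. Umod, which encodes uromodulin, had the smallest p of the list (log2 fold change 0.54 ± 0.08; edgeR, adjusted p = 0.0599). It stood at 1113 to 1341 CPM in knockout, against 768 to 929 CPM in wildtype, and the cotransporter gene Slc12a1 899 to 1102 and 1082 to 1210 CPM.

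Genes that work with Pcbd1 and Kcna1 did not pass either. Of 5 genes that make and recycle tetrahydrobiopterin (Pcbd2, Gch1, Pts, Spr, Qdpr), 0 passed and 0 reached an unadjusted p under 0.05 with edgeR or DESeq2, with log2 fold changes of -0.29 to 0.07 and a median of -0.05. Gch1, the entry enzyme of that pathway, was lowest (-0.29 ± 0.25), followed by Pcbd2, the paralog of Pcbd1 (-0.18 ± 0.16). Of 8 other Kv1 channel and beta subunit genes, 6 were tested and 0 passed, with a median of -0.35 and all 6 negative. Over all tested genes 9218 of 18548 were negative. Kcna5 stood at 2.35 to 2.89 CPM in knockout, against 3.35 to 4.76 CPM in wildtype, and the beta subunit Kcnab3 3.27 to 4.45 and 4.81 to 6.54 CPM. Neither overlapped between the groups, against 4.03% of all tested genes without overlap, and neither passed (edgeR, adjusted p = 0.561 and 0.679).

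**Figure D4:**
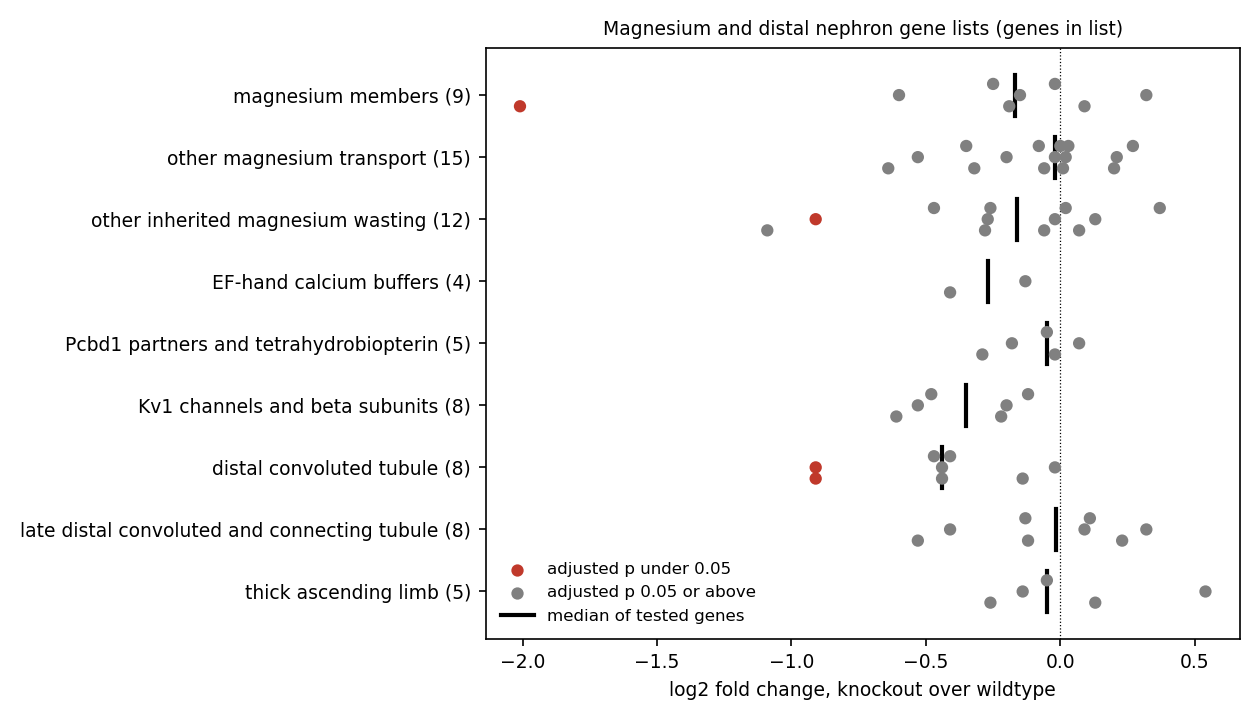
Log2 fold change of knockout over wildtype for each tested gene of the members and of 8 related lists, with the number of genes in each list in brackets, the median as a bar and genes past the threshold in red. Pvalb lies at -2.01, beyond all other genes shown, and the distal convoluted tubule markers lie at or below -0.02.

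The genes whose pattern over the 8 libraries was most like that of Pvalb were found by the root mean square difference of log2 CPM, with each gene centred on its own mean. Among 16874 genes with a mean of at least 1 CPM the nearest were Gcgr (0.48), Slc6a7 (0.52), Gpx6 (0.53), Grem1 (0.53) and Uroc1 (0.54). They encode the glucagon receptor, a proline transporter, a glutathione peroxidase, the BMP antagonist gremlin and urocanate hydratase. A gene with no variation would lie at 1.02 and the median gene lay at 1.03. Gcgr stood at 12.1 ± 1.85 CPM in knockout, against 25.6 ± 1.36 CPM in wildtype, a log2 fold change of -1.09 that passed, as did that of Gpx6 (-1.03; edgeR, adjusted p = 0.00804 and 0.0159). Grem1 had the size of change nearest to Pvalb (-2.22) but varied more, at 0.849 ± 0.408 and 3.97 ± 1.79 CPM, and did not pass (edgeR, adjusted p = 0.24). All distances are over the same 8 libraries, 4 of each genotype, and describe likeness of pattern only.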

How the data were processed

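Directional libraries were prepared from total RNA of whole kidney, per the labels' protocols. Salmon, DESeq2 1.14.1 and the mm10 build (GRCm38) are named in the submitters' processing notes, and no source used here gives the annotation release. As deposited by the authors, the values were estimated counts per gene, as whole numbers without gene names, and TPM per gene with identifiers and symbols. The 47729 count rows were joined in order to the TPM identifiers, 2 of which stood on 2 rows. The join was checked on 13251 genes (minimum 50 counts per library): the SD between libraries of log2 count over TPM had a median of 0.00074, against 0.281 with rows shifted by 1.

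Counts were filtered with filterByExpr, scaled with TMM and compared by the quasi-likelihood test of edgeR 4.0.16 in R 4.3.3 (robust, two-sided, genotype alone), with Benjamini-Hochberg adjustment over 18548 genes. Standard errors were obtained from the fold change and its F statistic. The test was tried on simulated data first. Alternatives were DESeq2 1.42.0, limma 3.58.1 (voom, and log2(TPM + 1) and log2(TPM + 0.1)), other scalings and filters, the replicate number as a block, each library left out, and, added after seeing the data, the 2 Xist-rich libraries left out. Positions are from GENCODE M21 and promoter sequences from RefSeq.

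The members and lists were chosen with earlier results of these data known. All 93 list symbols were found, and a few listed genes are not reported here. Named are the members, Kctd1, listed genes past the threshold and up to 2 others with the smallest p, the highest marker by TPM of each other cell type, and the 5 genes nearest to Pvalb. Markers under 0.1 TPM, Acta1, Atp2a1, Gad1, Klk1, Calb2 and oncomodulin were named after their values were seen. Libraries held 14457760 to 20741076 counts.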

Additional observations from a re-analysis of the deposited data

Results flagged for a closer look

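Among 18 groups of 4 libraries (9 members, knockout and wildtype), 1 had a value standing well away from its 3 companions. Chance would flag about 0.9 groups (1 in 20). Slc41a1 measured 46.7 CPM in wildtype 4, and the other wildtype libraries measured 28.9 to 30.4 CPM. The gap was 0.914 of the whole range of the group, above Dixon's 95% critical value for 4 samples. Its log2 fold change was -0.19 with this library and 0.01 without it. Cnnm3, a magnesium transport gene named after its values were seen, also had its highest value in wildtype 4, at 65.1 CPM against 35.9 to 40.2 CPM in the other wildtype libraries.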

How the results depend on the processing

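Under each of 19 alternatives 1 member passed, Pvalb, with log2 fold changes of -2.14 to -1.92 and adjusted p from 8.7e-37 (DESeq2) to 0.0162 (without the 2 Xist-rich libraries); without each library in turn it was -2.09 to -1.92 and the number of members called was 1. None of the other 7 tested members passed under any alternative, with Trpm6 at -0.80 to -0.31 (lowest adjusted p 0.387), Trpm7 at -0.39 to -0.20 (0.219) and Cnnm4 at 0.11 to 0.35 (0.269). Small differences changed sign in 6 of the members' fold changes under the alternatives. Over the fits without each library in turn Slc41a1 ran from -0.28 to 0.01 and Pcbd1 from -0.06 to 0.04. Pcbd1 was 0.04 without knockout 2, 0.01 without wildtype 1 and 0.04 without the Xist-rich libraries, Slc41a1 was 0.01 without wildtype 4, and Slc41a3 was -0.03 and -0.05 with limma on log2(TPM + 1) and log2(TPM + 0.1). On these TPM scales the median of all tested genes moved to -0.11 and -0.14, so the values for Slc41a3 lie above it. The ends at -2.14 for Pvalb, -0.31 for Trpm6, -0.39 for Trpm7 and 0.11 for Cnnm4 also came from these TPM scales. Without each library in turn Trpm6 ran from -0.80 to -0.47, Trpm7 from -0.28 to -0.20 and Cnnm4 from 0.29 to 0.35.

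The count of 15 genes over the whole table was 27 with no filter on low counts, 155 with DESeq2 (56 higher and 99 lower), 5 with limma on either TPM scale and 3 without the Xist-rich libraries. It was 10 to 52 without each library in turn, with 29 without knockout 3, 10 without wildtype 3 and 52 without wildtype 4. The cause was not tested. With the replicate number as a block 10 genes, 1 member and 1 of the 8 distal convoluted tubule markers passed, and Pvalb had a log2 fold change of -2.01 (adjusted p = 0.0117). Same-numbered libraries did not deviate together (correlations of -0.08 to 0.04, and knockout 3 alone correlated best with its own number), so the numbers were not taken as pairs. Kcna1 had at most 6 counts per library, which limits what could be seen for it.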
